A study of Mus musculus with 16 samples.

Results

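The genes described here encode the signalling core of the T cell receptor and were chosen by name: the 4 CD3 chains Cd3e, Cd3d, Cd3g and Cd247, the coreceptor chains Cd4, Cd8a and Cd8b1, the kinases Lck and Zap70, and the adaptor Lat. They are 10 of the 55423 gene rows in the count table, and all 10 passed the filter on low counts that left 21085 genes for testing. RNA was sequenced from subcapsular sinus macrophages (SSMs) and medullary sinus macrophages (MSMs), the macrophages that line the outer and inner sinuses of the lymph node. All mice were C57B/6 males that carried MOC2, a chemically induced squamous cell carcinoma line, 2 weeks after 500000 cells had been placed intradermally in the flank, and no tumor-free mice were included. The 4 groups were SSMs from non-draining nodes (ndLN), SSMs from tumor-draining nodes (tdLN), MSMs from ndLN and MSMs from tdLN. Each library came from pooled nodes of 2 mice, either 2 tdLN or 6 contralateral inguinal, axillary and brachial ndLN. The ages of the mice were not given in the sources used here. Both subsets were sorted as live CD45+ CD11b+ CD169+ cells after gating out cells with CD3, B220 or Ly6G on their surface, and SSMs were CD11c- with low side scatter whereas MSMs were CD11c+ with high side scatter. About 10000 cells were recovered per library, and each group held n = 2 libraries.

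The T cell receptor recognises antigen through its variable chains but has no signalling tail of its own. It relies on the CD3 epsilon, delta and gamma chains and on the zeta chain (Cd247), whose tyrosine motifs are phosphorylated by Lck, a kinase that the coreceptors CD4 and CD8 bring to the receptor. Phosphorylated motifs recruit Zap70, which in turn phosphorylates Lat, the membrane scaffold on which downstream enzymes assemble. Most of these genes serve as T lineage markers, although natural killer (NK) cells also use Cd247, Lck, Zap70 and Lat, and in mice some dendritic cells carry CD4 or CD8 alpha homodimers that lack the beta chain encoded by Cd8b1.

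The libraries held between 42972328 and 48130352 counts, so that the floor of 3 counts corresponded to between 0.0623 and 0.0698 CPM, the unit used for levels here (counts scaled to the effective library size from TMM normalization). Each library had been run on lanes 3 and 4, whose counts differed by no more than sampling noise and were summed. The defining transcripts of the gate were unevenly present. Siglec1, which encodes CD169, was at 15.1 and 8.47 CPM in SSMs from ndLN, at 70.0 and 59.2 CPM in SSMs from tdLN, at 0.795 and 1.63 CPM in MSMs from ndLN and at 5.96 and 5.64 CPM in MSMs from tdLN. Itgam, which encodes CD11b, ranged from 54.5 to 124 CPM in SSMs and from 9.64 to 20.4 CPM in MSMs, whereas Itgax, which encodes CD11c, ranged from 63.6 to 149 CPM in SSMs and from 316 to 418 CPM in MSMs. The Siglec1 transcript was thus lowest in the MSM libraries, and the labels are used here as the names of the sorted populations. These are bulk samples, in which fewer cells of a type and less RNA per cell cannot be told apart.

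The 3 genes for the CD3 epsilon, delta and gamma chains lie together on mouse chromosome 9 (GRCm38). Cd3g (minus strand, start site at 44980431) and Cd3d (plus strand, start site at 44981786) are transcribed away from each other from start sites 1355 bases apart, and the Cd3e start site (minus strand, 45009627) lies 27841 bases from that of Cd3d. Cd8b1 (71322788 to 71337494) and Cd8a (71373427 to 71379173) are neighbours on the plus strand of chromosome 6, with start sites 50639 bases apart, and Cd4 lies on the minus strand of the same chromosome (124864692 to 124888221). Cd247 (165788681 to 165877277, plus strand) and Zap70 (36761798 to 36782818, plus strand) are on chromosome 1, Lck is on chromosome 4 (129548344 to 129573641, minus strand) and Lat is on chromosome 7 (126363824 to 126369570, minus strand). The annotation lists all 10 as protein-coding. The promoters of the 3 clustered CD3 genes, whose transcripts varied alike across the libraries, are given with that of Cd8a, whose transcript ran opposite to them between subsets. Each sequence is from RefSeq (GRCm38.p6), reads 5′ to 3′ on the strand of the gene and covers 250 bases before and 50 bases after the RefSeq start site. For Cd3e that site lies a few bases from the annotated start site given above, and for the others it is the same. Capitals mark matches on either strand to AGGAAG (an ETS core), TGTGGT (a RUNX core), CAGCTG (an E-box), CACCTG (another E-box) and AGATAA (letters bound by GATA factors).
Cd3e promoter (chr9:45009562-45009861, minus strand): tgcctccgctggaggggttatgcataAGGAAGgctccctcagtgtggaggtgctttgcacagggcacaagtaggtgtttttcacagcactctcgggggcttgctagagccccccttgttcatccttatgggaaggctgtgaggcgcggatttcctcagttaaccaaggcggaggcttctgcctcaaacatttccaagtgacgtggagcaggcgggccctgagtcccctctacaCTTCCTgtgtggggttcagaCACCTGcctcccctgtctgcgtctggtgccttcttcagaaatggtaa
Cd3d promoter (chr9:44981536-44981835, plus strand): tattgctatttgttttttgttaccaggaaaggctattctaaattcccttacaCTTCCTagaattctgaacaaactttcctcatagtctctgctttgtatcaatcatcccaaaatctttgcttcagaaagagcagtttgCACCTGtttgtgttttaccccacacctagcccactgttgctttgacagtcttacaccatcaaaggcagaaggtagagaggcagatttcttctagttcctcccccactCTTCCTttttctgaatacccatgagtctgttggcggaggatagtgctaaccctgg
Cd3g promoter (chr9:44980382-44980681, minus strand): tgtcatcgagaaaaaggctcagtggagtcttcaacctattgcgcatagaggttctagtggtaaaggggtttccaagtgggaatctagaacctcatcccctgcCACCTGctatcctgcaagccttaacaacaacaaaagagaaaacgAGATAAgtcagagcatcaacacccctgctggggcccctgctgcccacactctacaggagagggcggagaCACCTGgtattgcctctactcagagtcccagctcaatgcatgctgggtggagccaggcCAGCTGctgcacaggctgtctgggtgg
Cd8a promoter (chr6:71373177-71373476, plus strand): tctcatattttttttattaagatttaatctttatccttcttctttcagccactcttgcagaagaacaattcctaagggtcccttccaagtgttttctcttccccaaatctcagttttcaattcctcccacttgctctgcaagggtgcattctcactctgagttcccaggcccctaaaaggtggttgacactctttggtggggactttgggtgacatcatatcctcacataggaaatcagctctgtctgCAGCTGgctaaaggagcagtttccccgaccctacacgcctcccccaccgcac

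The Cd3e and Cd3d promoters each held 2 matches to the ETS letters and 1 to CACCTG. The Cd3g promoter held no ETS match, 2 matches to CACCTG, 1 to CAGCTG and 1 to AGATAA, and the Cd8a promoter held 1 match to CAGCTG alone. RefSeq promoters were found for 8 of the 10 genes, 11 in all because Lck has 2 and Zap70 has 3. The ETS letters occurred in 8 of the 11 and in 35.4% of all 32851 mouse promoters of this length, and CACCTG in 8 of the 11 and in 20.2% of all. TGTGGT occurred in 3 of the 11 (1 each for Lck, Zap70 and Lat) and in 16.8% of all, CAGCTG in 2 of the 11 and in 16.3% of all, and AGATAA in 1 of the 11 and in 11.2% of all. No motif lies within another, although neighbouring matches may share end bases. These matches describe letters in a fixed window and not sites of binding.

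The first question was whether transcripts of the receptor complex differed between the subsets. In ndLN, all 4 CD3 chains were higher in SSMs than in MSMs, by between 6.53-fold and 10.3-fold. Cd3e, the epsilon chain shared by both CD3 heterodimers, was at 151 and 143 CPM in SSMs from ndLN, at 75.0 and 84.3 CPM in SSMs from tdLN, at 12.3 and 16.3 CPM in MSMs from ndLN and at 3.05 and 2.13 CPM in MSMs from tdLN. The 4 groups did not overlap, and both libraries of each subset were lower from tdLN. Cd3e was 10.3-fold higher in SSMs than in MSMs of ndLN (log2 fold change 3.36 ± 0.204 SE, adjusted p = 4.32e-05) and 30.8-fold higher in those of tdLN (4.95 ± 0.25, adjusted p = 6.17e-05). Here and below, adjusted p-values are from the quasi-likelihood test of edgeR, adjusted by Benjamini-Hochberg over all genes tested, with n = 2 libraries per group.

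Cd3d, the delta chain that pairs with epsilon, was at 94.1 and 94.3 CPM in SSMs from ndLN, at 52.2 and 59.5 CPM in SSMs from tdLN, at 11.3 and 17.7 CPM in MSMs from ndLN and at 2.45 and 2.16 CPM in MSMs from tdLN. It was 6.53-fold higher in SSMs of ndLN (adjusted p = 1.22e-04) and 24.3-fold higher in SSMs of tdLN (adjusted p = 7.9e-05). Its groups stood in the same order as those of Cd3e, without overlap. Cd3g, the gamma chain, was at 199 and 241 CPM in SSMs from ndLN, at 122 and 136 CPM in SSMs from tdLN, at 21.7 and 21.6 CPM in MSMs from ndLN and at 7.39 and 2.40 CPM in MSMs from tdLN. The last pair differed most, and with either of these libraries left out the log2 fold change between subsets in tdLN was 4.04 or 5.82 in place of 4.75 (adjusted p = 2.37e-04). In ndLN, Cd3g was 10.2-fold higher in SSMs (adjusted p = 3.73e-04), a call that was lost without replicate 1 or 2 of MSMs from ndLN (adjusted p between 0.0131 and 0.0145).

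Cd247, the zeta chain, was the lowest CD3 chain per length of exon in SSMs. It was at 83.8 and 76.1 CPM in SSMs from ndLN, at 44.7 and 62.1 CPM in SSMs from tdLN, at 7.49 and 9.23 CPM in MSMs from ndLN and at 3.44 and 3.35 CPM in MSMs from tdLN. It was 9.62-fold higher in SSMs of ndLN (adjusted p = 7.31e-05) and 15.6-fold higher in SSMs of tdLN (adjusted p = 9.99e-05). Of its exon bases, 3007 (56.4%) also lie in exons of Pou2f1, a transcription factor gene on the opposite strand. The strand setting of the counting was not given in the sources used here, so reads from this stretch cannot be assigned to either gene with certainty. Pou2f1 itself was between 6.79 and 14.0 CPM across the 8 libraries and was called in no comparison, with log2 fold changes between subsets of 0.20 in ndLN (adjusted p = 0.622) and -0.12 in tdLN (adjusted p = 0.828).

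**Figure D1:**
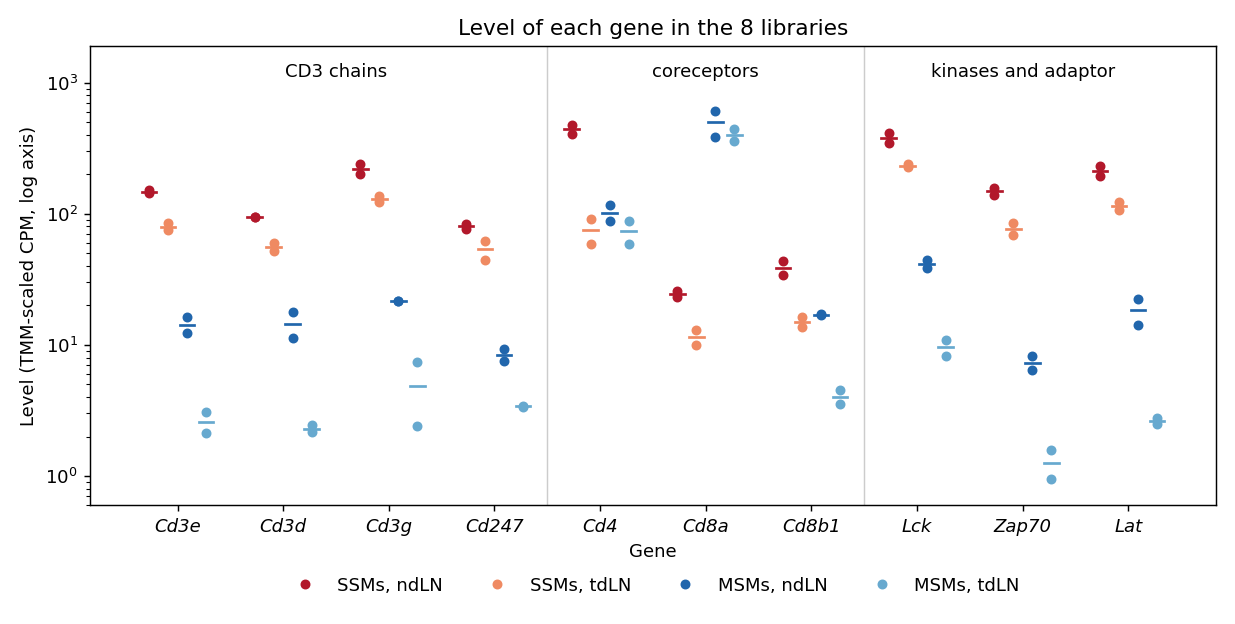
Level of each gene in the 8 libraries (y axis, TMM-scaled CPM on a log axis; x axis, the 10 genes in 3 classes). Points are libraries and short lines are means of the 2 libraries of a group. For Cd3e the points run from 151 CPM in SSMs from ndLN to 2.13 CPM in MSMs from tdLN, whereas for Cd8a the MSM points, between 357 and 605 CPM, lie above the SSM points.

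The groups of the kinases and the adaptor stood in the same order as those of the CD3 chains. Lck, the kinase that starts the cascade, was the most abundant of these genes per length in SSMs. It was at 343 and 413 CPM in SSMs from ndLN, at 227 and 239 CPM in SSMs from tdLN, at 38.5 and 44.7 CPM in MSMs from ndLN and at 10.9 and 8.23 CPM in MSMs from tdLN. The groups did not overlap, and Lck was 9.08-fold higher in SSMs of ndLN (log2 fold change 3.18 ± 0.181, adjusted p = 3.47e-05) and 24.3-fold higher in SSMs of tdLN (4.60 ± 0.203, adjusted p = 3.48e-05).

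Zap70, the kinase that docks on phosphorylated CD3 chains, had the widest range of the 10 genes, with a mean 117-fold higher in SSMs from ndLN than in MSMs from tdLN. Its level was 138 and 157 CPM in SSMs from ndLN, 68.7 and 84.6 CPM in SSMs from tdLN, 6.49 and 8.18 CPM in MSMs from ndLN and 0.945 and 1.58 CPM in MSMs from tdLN. The last pair rested on 39 and 72 counts, the fewest of any of these genes and still well above the floor of 3 counts. Zap70 was 20.2-fold higher in SSMs of ndLN (4.34 ± 0.182, adjusted p = 1.47e-05) and 60.2-fold higher in SSMs of tdLN (5.91 ± 0.23, adjusted p = 2.72e-05).

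Lat, the scaffold phosphorylated by Zap70, was at 195 and 230 CPM in SSMs from ndLN, at 106 and 122 CPM in SSMs from tdLN, at 14.3 and 22.4 CPM in MSMs from ndLN and at 2.79 and 2.51 CPM in MSMs from tdLN. Again every SSM library lay above every MSM library. The difference between subsets was 11.7-fold in ndLN (3.54 ± 0.189, adjusted p = 2.94e-05) and 43.2-fold in tdLN (5.43 ± 0.234, adjusted p = 3.48e-05). The calls of Cd3e, Cd3d, Cd247, Lck, Zap70 and Lat between subsets were kept in both nodes with each of the 8 libraries left out in turn.

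The coreceptors did not move as a class. Cd4, which binds MHC class II and carries Lck, was at 404 and 475 CPM in SSMs from ndLN, at 91.7 and 59.0 CPM in SSMs from tdLN, at 87.8 and 116 CPM in MSMs from ndLN and at 88.0 and 58.4 CPM in MSMs from tdLN. The SSMs from ndLN stood alone above the other 3 groups, which overlapped one another. Cd4 was 4.31-fold higher in SSMs than in MSMs of ndLN (2.11 ± 0.276, adjusted p = 0.00132), a call lost without replicate 2 of SSMs from ndLN or replicate 1 of MSMs from ndLN (adjusted p between 0.016 and 0.0194). In tdLN the log2 difference between subsets was 0.04 ± 0.273 (adjusted p = 0.966) and ranged between -0.32 and 0.37 with single libraries left out, and Cd4 was the 1 gene of the 10 that did not pass the test there.

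Cd8a, the alpha chain of CD8, ran opposite to the other genes in the comparison of subsets, apart from Cd4 in tdLN. It was at 25.8 and 23.0 CPM in SSMs from ndLN, at 10.0 and 13.0 CPM in SSMs from tdLN, at 605 and 387 CPM in MSMs from ndLN and at 357 and 439 CPM in MSMs from tdLN. All MSM libraries lay above all SSM libraries, and the MSM libraries of the 2 nodes overlapped. Cd8a was 20.3-fold lower in SSMs than in MSMs of ndLN (log2 fold change -4.34 ± 0.271, adjusted p = 4.87e-05) and 34.6-fold lower in tdLN (-5.11 ± 0.288, adjusted p = 7.16e-05). These calls were kept with each library left out.

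Cd8b1, which encodes the beta chain of the CD8 heterodimer found on cytotoxic T cells, did not share the pattern of its neighbour. It was at 43.6 and 34.1 CPM in SSMs from ndLN, at 13.7 and 16.3 CPM in SSMs from tdLN, at 16.8 and 17.2 CPM in MSMs from ndLN and at 4.53 and 3.54 CPM in MSMs from tdLN. Cd8b1 was higher in SSMs of ndLN by 2.28-fold (1.19 ± 0.214, adjusted p = 0.00592) and of tdLN by 3.73-fold (1.90 ± 0.268, adjusted p = 0.00263). The first call was lost without any 1 of the 8 libraries (adjusted p between 0.0126 and 0.0632), and the second without any 1 of the 4 tdLN libraries (adjusted p between 0.0135 and 0.0416). Per kilobase of exon, the level of Cd8a was 0.241 and 0.275 times that of Cd8b1 in SSMs from ndLN, 0.299 and 0.326 times in SSMs from tdLN, 14.7 and 9.17 times in MSMs from ndLN and 32.1 and 50.5 times in MSMs from tdLN. Alpha transcripts were thus fewer than beta transcripts in every SSM library and in excess in every MSM library.

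Markers of conventional type 1 dendritic cells (cDC1), which carry CD8 alpha in the mouse lymph node, were mostly higher in MSMs, as was Cd8a. The summed level of 8 such markers was between 330 and 688 CPM in SSMs and between 4430 and 5820 CPM in MSMs, and 7 of the 8 were called lower in SSMs of ndLN and 8 of 8 in SSMs of tdLN. Xcr1, a chemokine receptor that defines these cells, ranged from 14.2 to 33.6 CPM in SSMs and from 630 to 752 CPM in MSMs. Clec9a, their receptor for dead cell debris, ranged from 0.807 to 2.08 CPM in SSMs and from 132 to 203 CPM in MSMs. Markers of conventional type 2 dendritic cells summed to between 377 and 1560 CPM in SSMs and between 606 and 1130 CPM in MSMs. Those of plasmacytoid dendritic cells summed to between 86.5 and 102 and between 95.8 and 132 CPM. In SSMs, Sirpa made up most of the first sum and Tcf4 most of the second. Of 7 type 2 markers, 2 were called lower in SSMs of ndLN (Mgl2 and Cd209a) and 1 higher in SSMs of tdLN (Sirpa). Of 6 plasmacytoid markers, Ccr9 was called lower in SSMs of both nodes, and Runx2 was called higher in SSMs of ndLN. The part of these cells in the Cd8a result was not tested.

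**Figure D2:**
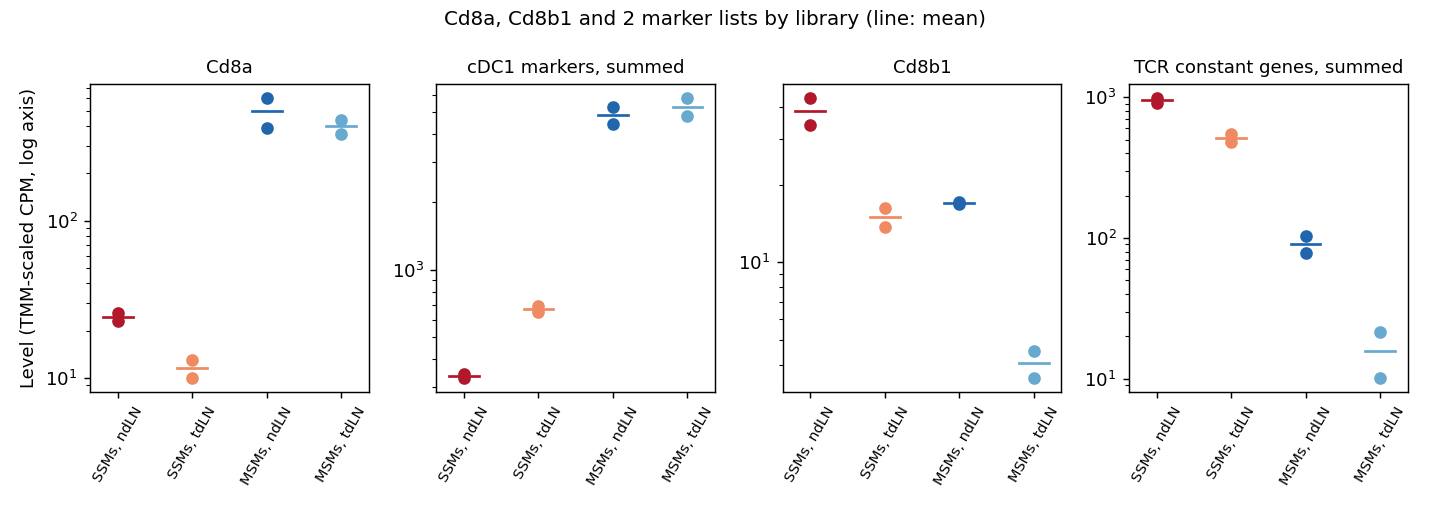
Levels of Cd8a, of 8 summed cDC1 markers, of Cd8b1 and of 7 summed T cell receptor constant genes (y axes, TMM-scaled CPM on log axes of different range; x axis, the 4 groups; points are libraries and lines their means). Cd8a and the cDC1 markers are high in both MSM groups, whereas Cd8b1 and the constant genes are highest in SSMs from ndLN.

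Counted over the set, 9 genes were higher and 1 was lower in SSMs of ndLN, where 6.00% of the 21085 genes tested were called higher and 6.06% lower. In tdLN, 8 were higher and 1 was lower, beside 5.16% and 3.52% of all genes. The median log2 fold change of the 10 genes was 3.22 in ndLN, where that of all genes was 0.09, and 4.60 in tdLN, where that of all genes was 0.02. The counts stayed at 10 and 9 without pool in the model, with DESeq2's Wald test and under each other alternative run on all 8 libraries. Over all genes tested, DESeq2's Wald test called 3690 in ndLN and 3026 in tdLN.

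**Figure D3:**
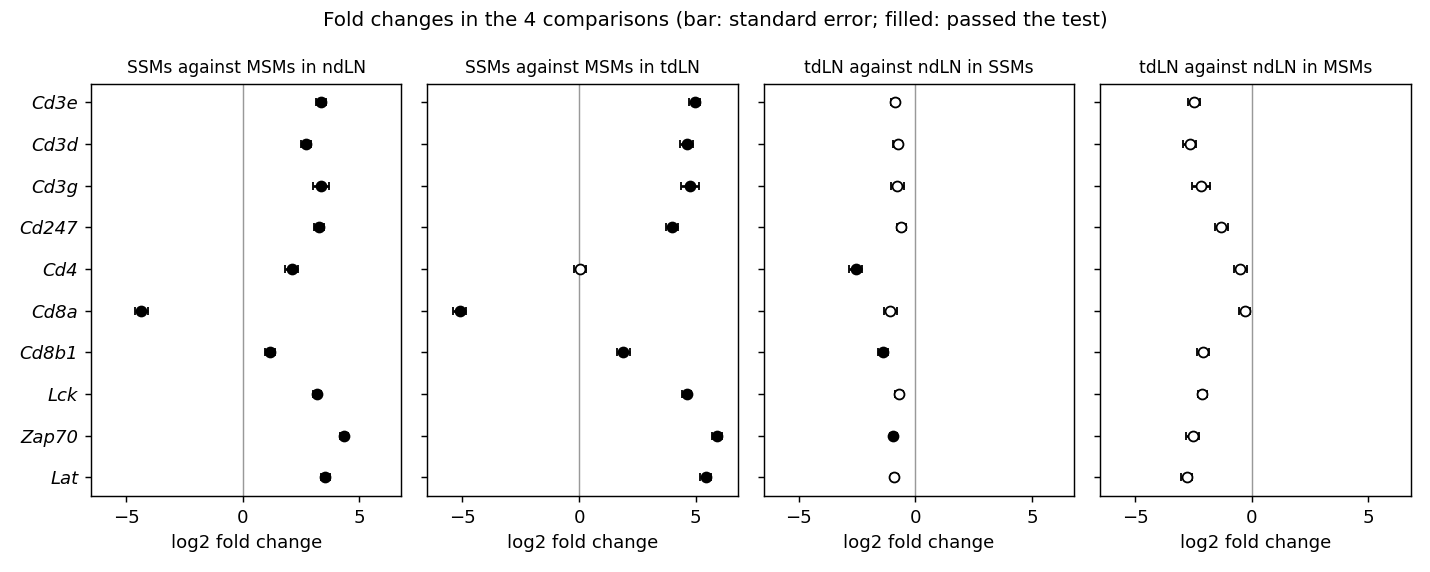
Fold change of each gene in the 4 comparisons (x axis, log2 fold change; y axis, the 10 genes; points are estimates of edgeR's quasi-likelihood fit, bars their standard errors, and filled points passed the test). In SSMs against MSMs, Cd8a lies left of 0 and the other genes right of it apart from Cd4 in tdLN, and in tdLN against ndLN all 10 points lie left of 0 in both subsets, with 3 filled in SSMs and none in MSMs.

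Other receptor genes and lymphoid markers were higher in SSMs as well. The constant genes of the T cell receptor alpha, beta, gamma and delta chains summed to 914 and 992 CPM in SSMs from ndLN, 484 and 543 CPM in SSMs from tdLN, 77.9 and 103 CPM in MSMs from ndLN and 21.5 and 10.1 CPM in MSMs from tdLN, and 7 of 7 were higher in SSMs in both nodes. Of 8 NK cell markers, 8 were higher in SSMs in both nodes, with sums between 1090 and 1850 CPM in SSMs and between 14.6 and 48.4 CPM in MSMs. Of 12 markers of innate-like lymphoid cells, 11 were higher in SSMs of ndLN and 10 in those of tdLN, with sums of 1980 and 2530 CPM in SSMs from ndLN, 786 and 885 CPM in SSMs from tdLN and between 38.5 and 104 CPM in MSMs. Mast cell and basophil markers were higher in SSMs for 8 of 11 in ndLN and for 7 of 11 in tdLN, where 1 was lower. Their sum was between 413 and 3210 CPM in SSMs and between 312 and 692 CPM in MSMs, where Kit, the stem cell factor receptor, made up most of it and Ms4a2 was at 0 in all 4 libraries. B cell markers summed to between 18.7 and 43.4 CPM in all libraries. Of 12 sinus macrophage markers, 5 were higher and 2 lower in SSMs of ndLN, and 6 were higher in those of tdLN. Their sums were between 6110 and 23900 CPM in SSMs and between 4750 and 5440 CPM in MSMs, and Lyz2 made up most of them. The part of other cell types in the levels of the 10 genes was not tested.

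Scaled to Cd3e within each library and per kilobase of exon, some of the genes kept their proportions and others did not. Lck was between 3.17 and 5.37 times the level of Cd3e across the 8 libraries, Lat between 1.35 and 2.37 times, Cd3d between 1.4 and 2.45 times and Cd3g between 1.4 and 3.02 times, although Cd3e itself varied 56.6-fold between group means. Zap70 was between 1.25 and 1.5 times the level of Cd3e in the SSM libraries and between 0.422 and 1.01 times in the MSM libraries. Cd247 was between 0.407 and 0.564 times in SSMs and in MSMs from ndLN, and 0.863 and 1.2 times in MSMs from tdLN, where Cd247 was at 3.44 and 3.35 CPM beside 9.99 and 9.42 CPM of Pou2f1. Cd4 was 2.71 and 3.36 times the level of Cd3e in SSMs from ndLN, 1.24 and 0.708 times in SSMs from tdLN, 7.2 and 7.18 times in MSMs from ndLN and 29.2 and 27.7 times in MSMs from tdLN. Cd8b1 was between 0.501 and 0.795 times in SSMs and between 2.91 and 4.57 times in MSMs. These ratios are descriptions, and no test was run on them.

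**Figure D4:**
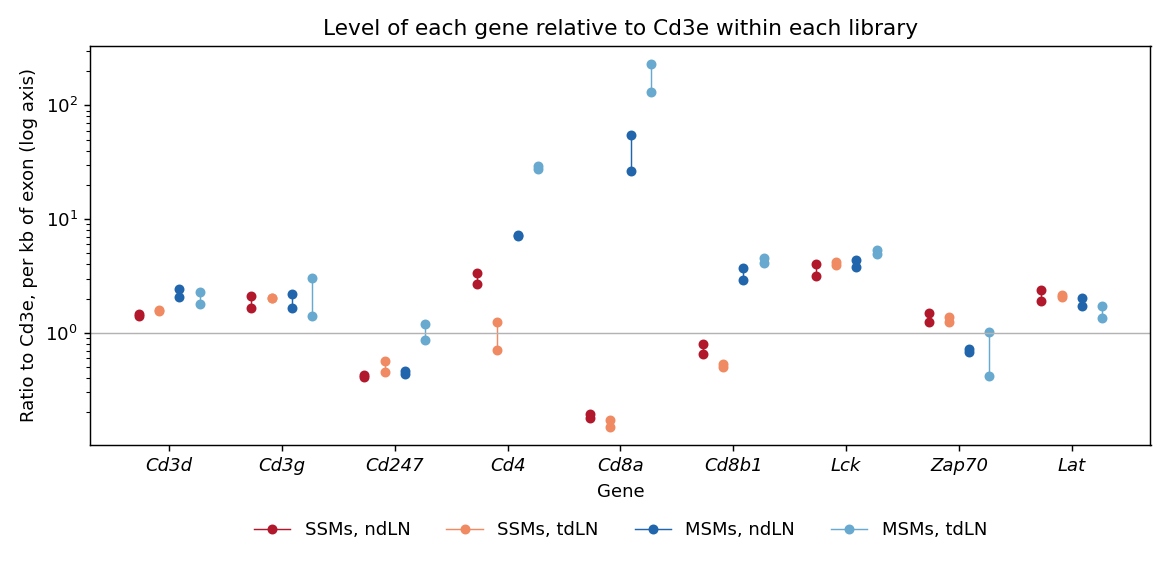
Level of the other 9 genes relative to Cd3e within each library, per kilobase of exon (y axis, ratio on a log axis; x axis, genes; points are libraries, joined within a group). Lck, Lat, Cd3d and Cd3g stay within a narrow band, between 1.35 and 5.37, whereas the ratios of Cd4, Cd8a and Cd8b1 are higher in MSMs than in SSMs.

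The second question was whether the transcripts differed between tdLN and ndLN. A tdLN pool held 2 nodes, whereas an ndLN pool mixed 6 inguinal, axillary and brachial nodes of the other flank. Drainage, node site and the number of nodes pooled therefore cannot be told apart here. In SSMs, Cd4 fell 5.91-fold in tdLN (log2 fold change -2.56 ± 0.282, adjusted p = 0.00265), from 404 and 475 CPM to 91.7 and 59.0 CPM. Cd8b1 fell 2.58-fold (-1.37 ± 0.215, adjusted p = 0.00975) and Zap70 fell 1.94-fold (-0.95 ± 0.148, adjusted p = 0.0094). These 3 genes were called lower where 1.05% of all genes were lower and 1.98% were higher. Without pool in the model, Zap70 was not called (adjusted p = 0.012), and without the filter on low counts neither Cd8b1 (adjusted p = 0.0121) nor Zap70 (adjusted p = 0.0124) was called. The call of Cd4 was lost without any 1 of the 4 SSM libraries (adjusted p between 0.0124 and 0.0521), and those of Cd8b1 and Zap70 without any 1 of the 8 libraries (adjusted p between 0.0247 and 0.154 and between 0.0218 and 0.14).

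The other 7 genes did not pass the test in SSMs. At an unadjusted p under 0.05, all 10 genes passed, as did 23.0% of all genes. DESeq2's Wald test called 8 of the 10, where it called 1973 of the 21085 genes tested, 849 of them lower. In edgeR's fit, the log2 fold changes of the other 7 genes lay between -0.60 for Cd247 (adjusted p = 0.102) and -1.08 for Cd8a (adjusted p = 0.0521). Cd3e was at -0.89 (adjusted p = 0.023), Cd3d at -0.76 (adjusted p = 0.0472) and Cd3g at -0.77 (adjusted p = 0.167). Lck was at -0.70 (adjusted p = 0.0395) and Lat at -0.90 (adjusted p = 0.017). For 10 of the 10 genes both libraries from tdLN lay below both from ndLN, a pattern that 26.3% of all genes tested showed. The median over the set was -0.89 and that over all genes -0.04. In the same comparison, 9 of 12 sinus macrophage markers rose in tdLN and their sum went from 9400 and 6110 CPM to 23900 and 16600 CPM. Lyz2 made up most of that sum, at 7940 and 5044 CPM in ndLN and 19310 and 12930 CPM in tdLN. Among innate-like lymphoid markers, 5 of 12 fell, and of the constant genes 1 of 7. Of 11 mast cell and basophil markers 2 fell and 1 rose (median log2 fold change -2.42), with sums of 3210 and 2170 CPM in ndLN and 413 and 852 CPM in tdLN. Of 7 markers of conventional type 2 dendritic cells 3 rose (median 2.12). Their sums were 469 and 377 CPM in ndLN and 1560 and 1410 CPM in tdLN. Sirpa made up most of these, at 368 and 293 CPM in ndLN and 1297 and 1052 CPM in tdLN. Of 8 cDC1 markers 1 rose (median -0.06). Their sum was 344 and 330 CPM in ndLN and 688 and 650 CPM in tdLN, whereas Cd8a was lower in tdLN. Naaa, the marker that rose, went from 111 and 65.8 CPM to 495 and 423 CPM. Whether these shifts in markers bear on the values of the 10 genes was not tested.

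In MSMs, none of the 10 genes passed edgeR's quasi-likelihood test, in a comparison where 0.00474% of all genes were called higher and 0.0190% lower. At an unadjusted p under 0.05, 8 of the 10 passed, as did 11.9% of all genes. DESeq2's Wald test called 8 lower, where it called 328 of the 21085 genes tested lower. The largest differences were those of Lat, with a log2 fold change of -2.78 ± 0.247 (adjusted p = 0.012), Cd3d, with -2.66 ± 0.286 (adjusted p = 0.0183), Zap70, with -2.53 ± 0.275 (adjusted p = 0.0183), and Cd3e, with -2.47 ± 0.27 (adjusted p = 0.0183). Lck, at -2.12 ± 0.198 (adjusted p = 0.014), was called without pool in the model (adjusted p = 0.00647). Cd3g stood at -2.17 (adjusted p = 0.0871), and at -1.47 or -3.25 with either library of MSMs from tdLN left out. Cd8b1 was at -2.08 (adjusted p = 0.0305) and Cd247 at -1.30 (adjusted p = 0.139).

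The 2 MSM libraries from tdLN lay below both from ndLN for 8 of the 10 genes, as for 18.1% of all genes. The exceptions were Cd4, with a log2 fold change of -0.50 ± 0.274 (adjusted p = 0.525), and Cd8a, with -0.31 ± 0.232 (adjusted p = 0.656), whose libraries overlapped between nodes. These 2 were also the genes of the set with the highest levels per length in MSMs. Summed cDC1 markers overlapped between nodes as well, at 5270 and 4430 CPM in ndLN and 4810 and 5820 CPM in tdLN. Single markers went either way, although none was called. Clec9a (200 and 203 CPM in ndLN, 132 and 179 CPM in tdLN) and Cadm1 were lower in both tdLN libraries. Itgae (146 and 164 CPM in ndLN, 301 and 321 CPM in tdLN), Batf3 and Naaa were higher in both.

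The interaction of subset and node tests whether the change from ndLN to tdLN differed between SSMs and MSMs. None of the 10 genes passed edgeR's quasi-likelihood test for it, where 0.0332% of all genes were called in one direction and 0.00474% in the other (7 and 1 genes, or 4 and 0 with DESeq2's size factors). At an unadjusted p under 0.05, 7 of the 10 passed, as did 12.3% of all genes. DESeq2's Wald test called 6, where it called 706 of the 21085 genes tested. The lowest adjusted p was that of Lat (0.04), whose log2 change in SSMs was 1.89 ± 0.303 above that in MSMs. For Cd4 the change in SSMs was below that in MSMs, by a log2 difference of -2.07 ± 0.385 (adjusted p = 0.0637).

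The pathway below the receptor was followed in 26 genes of downstream signalling. Of these, 12 were higher in SSMs of ndLN (median of the log2 changes 1.18), and 16 were higher in SSMs of tdLN (median 1.33). Of all genes tested, 6.00% were called higher in ndLN (median 0.091) and 5.16% in tdLN (median 0.024). In ndLN the largest difference was that of the kinase Txk (33.2-fold, adjusted p = 1.85e-05), which was at 185 and 221 CPM in SSMs from ndLN, at 82.4 and 105 CPM in SSMs from tdLN, at 5.59 and 6.62 CPM in MSMs from ndLN and at 2.42 and 1.41 CPM in MSMs from tdLN. In tdLN the largest differences were those of Sit1, a transmembrane adaptor (64.6-fold, adjusted p = 2.3e-04), and Prkcq, the protein kinase C of T cells (60.2-fold, adjusted p = 7.53e-05). In MSMs from tdLN, Sit1 rested on 9 and 7 counts (0.218 and 0.154 CPM), near the floor of 3 counts, and Prkcq on 71 and 32 counts. The fold of Sit1 is therefore uncertain (log2 fold change 6.01 ± 0.552 SE). Ptprc, which encodes CD45 and is used by all leukocytes, ranged from 1603 to 2590 CPM in SSMs and from 1149 to 1368 CPM in MSMs.

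Between nodes, 1 of the 26 genes was called higher and 1 lower in SSMs from tdLN, beside 1.98% and 1.05% of all genes tested. Counts of 1 gene are too few to set apart from these shares. The median of the list was -0.72, and that of all genes was -0.035. Ptpn6, a phosphatase that restrains receptor signalling in many leukocytes, rose 2.58-fold (adjusted p = 0.00192), and Ubash3a, a suppressor of T cell receptor signalling, fell 4.04-fold (adjusted p = 0.0023), from 37.1 and 40.6 CPM to 10.1 and 9.12 CPM. In MSMs none of the 26 genes was called, and the median of the list was -0.47, where that of all genes was 0.009.

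The genes most like the clustered CD3 chains across the 8 libraries, by Pearson's r of log2(CPM + 1) with the mean of Cd3e, Cd3d and Cd3g among 9975 candidate genes, were Gimap6, Cd27 and Prkcq (each r = 0.999) and Bcl11b and Trbc1 (each r = 0.998). For Cd8a they were Gpr171 (r = 0.998), Gpr141b and St3gal5 (each r = 0.997) and Sema4f and Tlcd2 (each r = 0.996), and for Cd4 they were Ptbp1 (r = 0.985), Zc3h15 (r = 0.98), Arl5b and Ppm1g (each r = 0.977) and Golga4 (r = 0.976). The points are 4 groups of 2 libraries and not independent, so these values rank genes and are given without a test. Likeness by r does not measure the size of a change. Cd27 ranged from 1.28 to 121 CPM across the libraries, whereas Ptbp1 ranged from 212 to 399 CPM beside a range of 58.4 to 475 CPM for Cd4.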

How the data were processed

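The authors deposited raw counts of reads, 1 column for each of the 16 samples and not normalized. Per the submitters' processing notes, bcl2fastq 2.20.0.422, Trimmomatic 0.36 and STAR 2.5.3a were used with the genome build GRCm38. The annotation, counting mode and strand setting were not given in the sources used here. Every column was mapped to a sample. Lanes of a library were summed.

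Counts were normalized by TMM and tested with edgeR 4.0.16 under R 4.3.3 (quasi-likelihood test, group and pool as terms, all 8 libraries, Benjamini-Hochberg adjustment over 21085 genes that had 10 or more counts in total and were seen in 2 or more samples). Rows of added sequences, with 6 counts, were left out. A gene was called at an adjusted p under 0.01 with a normalized count above 100 per lane on average (4.43 CPM). The script was also run on simulated counts, with or without changed genes and drawn without a pool effect. That run checks the code and not the calls made here, and its outcome is not given. A standard error is the log2 fold change divided by the square root of F. Alternatives, among them DESeq2 1.42.0, are given in the closing section.

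Per the study's methods, the cells of a pool of 2 mice gave all 4 groups, which pairs libraries of the same number. The correlation of the deviations of libraries with the same number from their group means lay between -0.193 and 0.148 across pairs of groups, over 10000 genes. The labels number 2 pools, whereas the study's sample matrix numbers 4. With 2 pools, p-values cover the spread between these libraries, and the floor of 3 counts covers counting error only.

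Gene IDs were matched to GENCODE M21, which gave 55154 symbols, coordinates and exon lengths. The 10 genes and the marker lists were chosen with earlier results of these data known. All 10 genes were named, with the called downstream genes of the 2 largest rises and 2 largest falls in each comparison and the 5 genes of highest correlation with each of 3 patterns. One downstream gene that this rule names is not reported here. Other marker genes were named after their values were seen. Comparisons between SSMs of both nodes and between subsets share libraries.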

Additional observations from a re-analysis of the deposited data

How the results depend on the processing

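Over the alternatives, 684 values of single genes stayed on their side of the threshold, 39 lost and 27 gained a call, and no called value changed sign. With a library left out, the uncalled differences of Cd4 between subsets in tdLN (-0.32 to 0.37) and of Cd8a between nodes in MSMs (-0.70 to 0.12) took either sign. The counts of genes called between subsets changed only with a library left out, to between 7 and 9 in ndLN and between 8 and 9 in tdLN. For tdLN against ndLN in SSMs, where 3 were called, DESeq2's Wald test called 8, an adjusted p under 0.05 gave 7, no filter on low counts gave 1 and leaving out a library gave between 0 and 1. For tdLN against ndLN in MSMs, where 0 were called, DESeq2's Wald test called 8, an adjusted p under 0.05 gave 6, lane 4 alone gave 3, lane 3 alone and edgeR's filterByExpr gave 2 each, and leaving out a library gave 0. For the interaction, DESeq2's Wald test called 6, an adjusted p under 0.05 gave 1 and leaving out a library gave 0. Without the replicate block, 2 genes were called in SSMs and 1 in MSMs for tdLN against ndLN, and the block changed no other call of the 10 genes. DESeq2's size factors and no minimum mean count left all 5 counts as they were. The causes were not tested, beside the fewer samples of the fits that leave out a library, in which a lone library was assumed to vary like the other groups. Over all genes tested, DESeq2's Wald test called 3026 in place of 1831 between subsets in tdLN, 1973 in place of 638 between nodes in SSMs, 503 in place of 5 in MSMs and 706 in place of 8 for the interaction. Single lanes, filterByExpr and the fit without the block gave between 9 and 24 between nodes in MSMs and between 11 and 29 for the interaction, where DESeq2's size factors gave 4. With a library left out, between 1082 and 2021 genes were called between subsets in ndLN (2543 with all), between 507 and 1866 in tdLN, between 2 and 345 between nodes in SSMs, between 0 and 3 in MSMs and 0 for the interaction. The smallest change called among the 10 genes was 1.94-fold.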
